A study of Homo sapiens with 27 samples.

Results

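Expression of 10 genes of the intestinal crypt base was followed in LS174T human colorectal carcinoma cells: the R-spondin receptor genes LGR4, LGR5 and LGR6, the transcription factor genes ASCL2 and SOX9, the matrix protein gene SMOC2, the surface protein genes CD44 and PROM1, the RNA-binding protein gene MSI1 and the Polycomb gene BMI1. They were taken by name as crypt base and stem cell genes, and their probes were found through the gene symbols of the array platform's annotation, which gave 10 of the 20035 annotated genes and 15 of 47291 probes. The cells carried a doxycycline-inducible, HA-tagged mouse Snail1 transgene (the SNAI1 line) or mouse Lef1 transgene (the LEF1 line), or were a control line labelled as overexpressing nothing. The control arrays carry the short name Luc in their descriptions. Doxycycline was used at 0.1 µg/ml and renewed after 48 h, per the protocol in the labels. Of the 27 bead arrays, 11 are of the SNAI1 line, 9 of the control line and 7 of the LEF1 line. The SNAI1 and control lines were read before induction (0 h) and 3, 6, 24, 48, 72 and 96 h after it, and the LEF1 line at 0, 6, 24 and 72 h. Pairs of arrays exist at 0 and 6 h for every line, at 48 and 96 h for the SNAI1 line and at 72 h for the LEF1 line, and every other group is 1 array. All 3 lines derive from LS174T cells, the transgenes are of mouse sequence, and separate cultures are not stated for the paired arrays, so p-values measure the spread between these arrays, which may be technical.

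At the base of intestinal crypts, stem cells divide under Wnt signals. R-spondins bind LGR receptors and hold back the ubiquitin ligases that remove Wnt receptors, so that beta-catenin stays stable and acts with TCF and LEF factors on target genes, among them LGR5 and ASCL2 themselves. SNAIL1 is a zinc finger repressor that binds E-box motifs and is known for lowering epithelial genes during epithelial-mesenchymal transition, and LEF1 is one of the beta-catenin partners. Colorectal carcinomas often keep parts of the crypt base program, and LGR5, CD44 and PROM1 have been used as markers of tumour-initiating cells.

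Values are normalised log2 intensities, and a probe counted as detected on an array where its detection p was under 0.01. Of the 10 genes, 8 had a probe detected on at least 2 arrays, as did 13510 genes in all, and these were tested with limma and Benjamini-Hochberg adjustment over the 13510 genes at a threshold of 5%. The arrays form 2 sets by the form of their detection p: set 1 holds all SNAI1 line arrays and 7 control arrays, with 18241 to 19683 detected probes, and set 2 holds all LEF1 line arrays, control 0 h replicate 2 and control 6 h replicate 1, with 14766 to 15918. The summed level of 10 colonic epithelial markers was 13.99 to 14.44 on the log2 scale in the SNAI1 line at 0 to 6 h, 12.78 to 13.52 at 24 to 96 h, 14.41 to 14.71 in the control line and 14.35 to 14.56 in the LEF1 line. Of these 10 markers, 6 were detected on all 27 arrays. Of the markers of other cell types, the 4 fibroblast genes were detected on at most 5 arrays each (sum 6.65 to 7.28 in the SNAI1 line at 24 to 96 h, 6.51 to 6.89 before), the 3 endothelial genes on at most 2, with 2 of them on none, and the 3 leukocyte genes on the array on at most 7. In RNA from whole cultures, fewer cells expressing a gene and less RNA per cell cannot be told apart, and the part of the epithelial marker level in the results below was not tested.

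Over 24 to 96 h after Snail1 induction the crypt base genes changed in opposite directions. In the contrast that takes each line from its own 0 h and then subtracts the control line's change, LGR6 and CD44 rose and SMOC2, LGR5 and LGR4 fell. These 5 of the 8 tested genes passed, 2 higher and 3 lower, where 8.69% of all genes passed, 3.89% higher and 4.8% lower. Within array set 1, where 10.6% of all genes passed, LGR4 (-1.10, limma adjusted p = 0.147) and LGR5 (-1.27, 0.0713) did not pass. LGR5 also did not pass against the line's own 0 h (-0.90, 0.136). The median log2 change was -1.03 over all 8 genes, against 0.02 over all genes. At 3 and 6 h none of the 8 passed (0% of all genes did), and none had an unadjusted p under 0.05, while 337 of all genes had one. After Lef1 induction for 24 and 72 h limma called none of the 8, where 1.15% of all genes passed, 0.888% higher and 0.266% lower. LGR5 and SMOC2 had unadjusted p-values under 0.05 there, as did 1587 of all genes. The median over the 8 was -0.17, against -0.01 over all genes. None passed in the LEF1 line at 6 h (0% of all genes), where none of the 8 and 354 of all genes had an unadjusted p under 0.05.

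**Figure D1:**
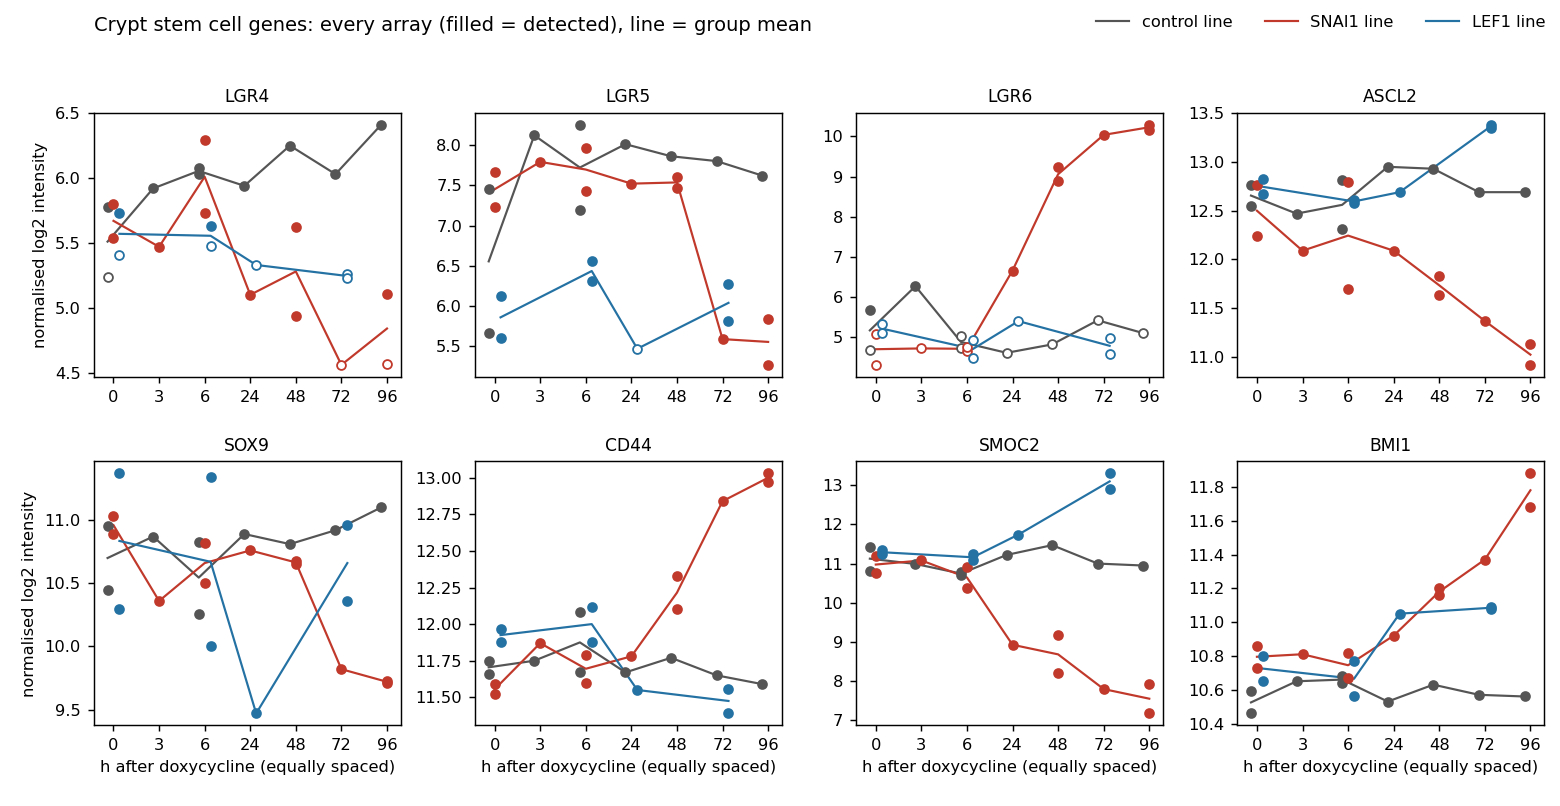
Normalised log2 intensity (vertical axes, which differ between panels) of the 8 genes with a probe past the detection filter at each time after doxycycline (horizontal axis in h, equally spaced), with 1 point per array, filled where the probe was detected, and lines through the group means of the control, SNAI1 and LEF1 lines. LGR6 climbs from about the level of undetected probes to 10.29 in the SNAI1 line, SMOC2 falls there to 7.18 and reaches 13.30 in the LEF1 line, and LGR5 drops between 48 and 72 h in the SNAI1 line.

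LGR5 encodes the R-spondin receptor by which cycling crypt base stem cells are recognised. In the SNAI1 line it read 7.23 and 7.67 at 0 h, 7.79 at 3 h, 7.96 and 7.43 at 6 h, 7.52 at 24 h, and 7.47 and 7.60 at 48 h. It then read 5.59 at 72 h and 5.27 and 5.84 at 96 h. The 3 arrays at 72 and 96 h thus lay below all 8 earlier arrays of the line, while those at 24 and 48 h lay among the earlier ones. The control line read 7.45 and 5.66 at 0 h and 8.12, 7.19, 8.25, 8.01, 7.86, 7.80 and 7.62 at the later times. Its lowest values were those of set 2, the low array at 0 h (5.66) and 1 at 6 h (7.19), against 7.45 to 8.25 in set 1. The late change in the SNAI1 line was -2.16 (SE 0.573, limma adjusted p = 0.0294). That call rested on the low control array: without control 0 h replicate 2 the change was -1.27 (adjusted p = 0.155), and within array set 1 it was -1.27 (adjusted p = 0.0713). Leaving out control 72 h (-1.85, adjusted p = 0.0959), control 96 h (-1.90, 0.0892), SNAI1 0 h replicate 1 (-2.38, 0.0674) or replicate 2 (-1.94, 0.148), or SNAI1 72 h (-1.85, 0.0959) also ended the call, which held in 21 of the 27 fits that each left out 1 array.

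Over 24 to 96 h against the line's own 0 h, LGR5 changed by -0.90 and did not pass (adjusted p = 0.136). At 72 and 96 h alone, a comparison added after the time courses were seen, it was 3.67-fold lower than at 0 h (log2 change -1.88, SE 0.447, adjusted p = 0.00545). In a further added comparison, 72 and 96 h against 24 and 48 h with the control line subtracted, LGR5 changed by -1.73 and did not pass (SE 0.633, adjusted p = 0.154). It passed there within array set 1 (adjusted p = 0.0227) and with the array set as a block (0.0206). Arrays of the LEF1 line read 6.12 and 5.60 at 0 h, 6.56 and 6.31 at 6 h, 5.47 at 24 h, where it was not detected, and 6.27 and 5.81 at 72 h. These values overlapped between early and late arrays. Against the line's own 0 h the change at 72 h was 0.19 (SE 0.478, adjusted p = 0.876). Set against time-matched control arrays the LEF1 line differed by -2.15 (adjusted p = 0.00763), which sets arrays of set 2 against arrays of set 1. At 0 h the difference was -0.70 (SE 0.478, adjusted p = 0.82). There the control arrays read 7.45 in set 1 and 5.66 in set 2, beside 6.12 and 5.60 in the LEF1 line. Over all 27 arrays the median of LGR5 was 7.61 in set 1 and 6.12 in set 2, and line and set cannot be told apart for the difference of -2.15.

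LGR4, the more widely expressed receptor of the family, lay near the detection limit. Its values in the SNAI1 line were 5.54 and 5.80 at 0 h, 5.47 at 3 h, 5.73 and 6.29 at 6 h, 5.10 at 24 h, 5.62 and 4.94 at 48 h, 4.56 at 72 h, and 5.11 and 4.57 at 96 h. The probe was undetected on 2 of these arrays, 72 h and 96 h replicate 2, and 1 of the 6 late arrays (48 h) reached into the range of the earlier 5. The control line had 5.78 and 5.24 at 0 h and 5.92 to 6.41 later. Over 24 to 96 h against the line's own 0 h LGR4 changed by -0.72 (SE 0.235, adjusted p = 0.0428), 1.65-fold lower. The control line changed by 0.65 over the same times. The late change, with the control line subtracted, was therefore -1.37 (SE 0.339, adjusted p = 0.0207), 2.58-fold lower relative to the control line. It did not pass within array set 1 (-1.10, adjusted p = 0.147), with the array set as a block (-1.22, 0.0542) or on the authors' deposited matrix (-0.52, 0.0517). It also missed the threshold without control 0 h replicate 2 (-1.10, adjusted p = 0.107), control 96 h (-1.25, 0.0578), SNAI1 0 h replicate 1 (-1.50, 0.0522) or replicate 2 (-1.24, 0.115). Among the LEF1 line's arrays LGR4 was detected on 2 of 7, 1 at 0 h and 1 at 6 h, with values from 5.23 to 5.73. Its late change there was -0.76 with the control line subtracted (SE 0.388, adjusted p = 0.484). Over 24 and 72 h against the line's own 0 h it was -0.28 (SE 0.265, adjusted p = 0.65).

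LGR6, the third R-spondin receptor gene, showed the largest change of the 8 tested genes in the SNAI1 line. It was not detected on the 5 arrays up to 6 h, which read 4.31 to 5.09, and was detected on all 6 later ones. These read 6.66 at 24 h, 9.23 and 8.89 at 48 h, 10.04 at 72 h, and 10.17 and 10.29 at 96 h. No late array overlapped the earlier ones, and the values at 72 and 96 h lay above those at 24 and 48 h. The late change was 4.47 (SE 0.389, adjusted p = 1.26e-05), with 3.97 to 5.13 when any 1 array was left out and the call kept in all 27 such fits. Since the probe was undetected at 0 h, the fold was set against the lowest detected signal where that was higher. By this rule the level at 72 and 96 h was at least 39.4-fold higher than at 0 h (measured means 10.13 and 4.7), and the mean over 24 to 96 h at least 17.9-fold. An undetected probe can read above that signal: on control 72 h LGR6 was undetected at 5.42 and another probe was detected at 5.25. These folds, and those given below as at least, are therefore not strict limits. From 24 and 48 h to 72 and 96 h it rose by a further 1.73 (SE 0.43, adjusted p = 0.0357). That step did not pass in 7 of 27 fits with 1 array left out (0.63, adjusted p = 0.705, without control 24 h, in which 24 h drops out).

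The other lines stayed near the level of undetected probes. The control line's probe read 4.67 and 5.67 at 0 h, 6.27 at 3 h and 4.61 to 5.42 from 6 h on, detected at 0 h in replicate 2 and at 3 h only. On LEF1 line arrays it ranged from 4.48 to 5.40 and was detected on none of 7 arrays. The LGR6 symbol is carried by 3 other probes, which were detected on at most 1 array: those numbered ILMN_1703081 and ILMN_1677464 were detected on no array (4.28 to 5.41 and 4.22 to 4.84), and ILMN_1662362 on 1, SNAI1 96 h replicate 1 (4.96). The last of these read 4.70 to 5.35 at 72 and 96 h in the SNAI1 line, above its 4.23 to 4.36 at 0 to 6 h, and reached 4.87 in the control line. The rise of LGR6 is therefore the reading of 1 of its 4 probes, ILMN_1713550, the only one that passed the detection filter. Across the 18 group means, the genes most like LGR6 among 9450 whose means span at least 1 were SCD5 (Pearson r = 0.971), CYB5R2 (0.962) and HEY1 (0.962), a description over group means that share lines and arrays. For LGR5 they were TSR1 (0.914), MICB (0.91) and PGAM1 (0.904), and for LGR4 CCNP (0.91), GK5 (0.907) and C3orf33 (0.907).

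**Figure D2:**
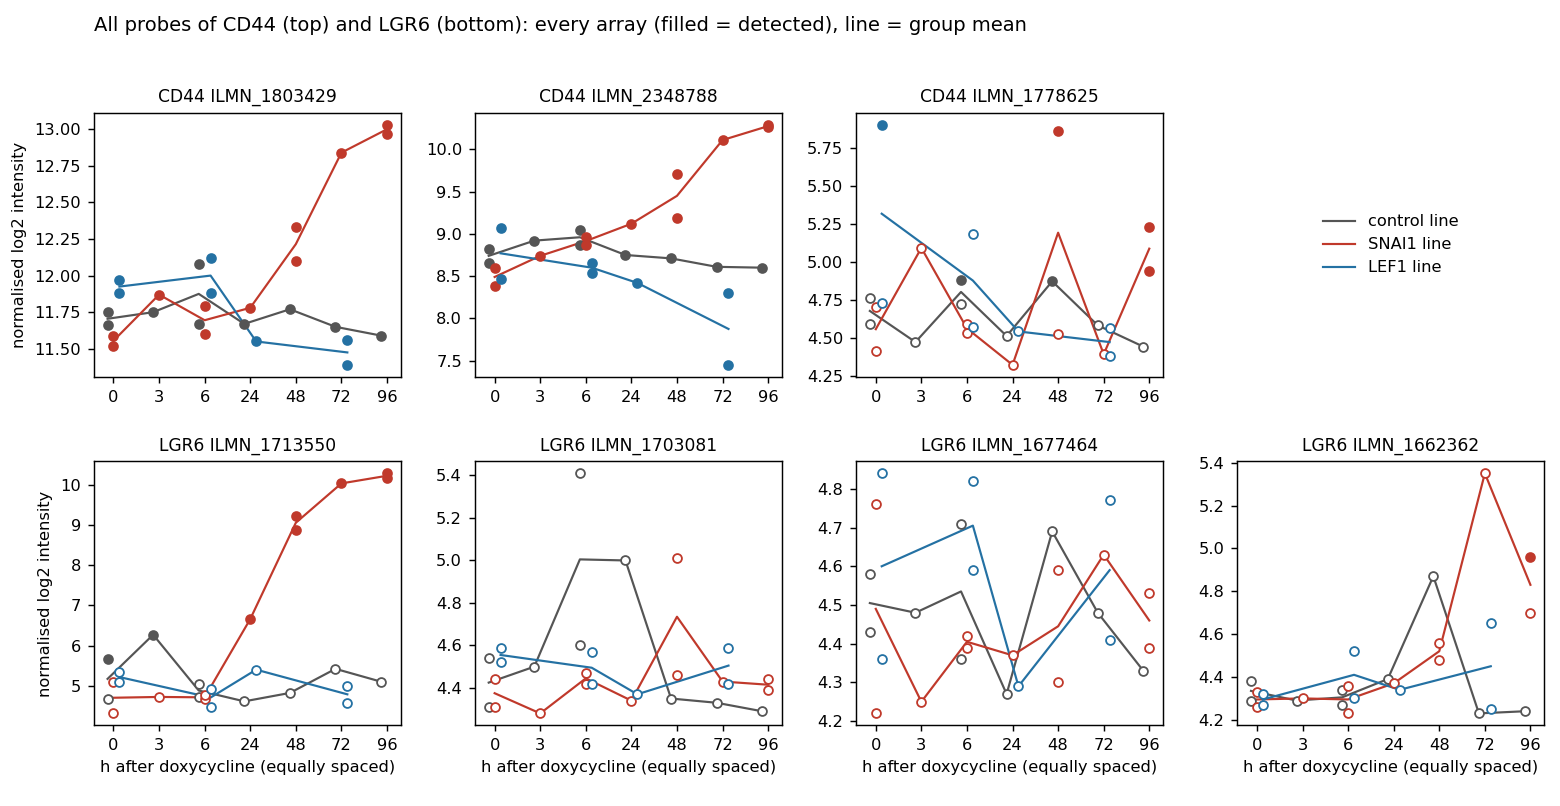
Every probe of CD44 (top) and LGR6 (bottom), as normalised log2 intensity (vertical axes, which differ between panels) against time after doxycycline in h (equally spaced), with 1 point per array, filled where detected, and lines through group means by line. Of the CD44 probes 2 rise together in the SNAI1 line, while the third is detected on 6 of 27 arrays, and 1 of the 4 LGR6 probes rises, from 24 h on.

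ASCL2, a basic helix-loop-helix factor that drives the crypt stem cell program, was among the bright probes and was detected on all 27 arrays. Its values in the SNAI1 line were 12.76 and 12.24 at 0 h, 12.09 at 3 h, 11.70 and 12.79 at 6 h, 12.09 at 24 h, 11.64 and 11.83 at 48 h, 11.37 at 72 h, and 10.92 and 11.13 at 96 h. The last 3 arrays lay below all earlier ones of the line. Its late change with the control line subtracted was -1.11 and did not pass (SE 0.363, adjusted p = 0.0798). It passed against time-matched control arrays (-1.26, adjusted p = 0.00026), over 24 to 96 h against the line's own 0 h (-0.94, 0.0158), at 72 and 96 h against 0 h (-1.30, SE 0.283, 0.00301), and with trend and robust in limma's variance step (-1.11, 0.0347). Under Lef1 induction ASCL2 read 12.67 and 12.82 at 0 h, 12.61 and 12.58 at 6 h, 12.69 at 24 h, and 13.35 and 13.38 at 72 h. Both 72 h arrays lay above the other 5 of the line and above the control line's highest value of 12.95. The change at 72 h against the line's own 0 h was 0.61 and did not pass (SE 0.303, adjusted p = 0.249), and the SNAI1 minus LEF1 difference over 24 and 72 h was -1.05 (SE 0.415, adjusted p = 0.285). The genes most like ASCL2 over the 18 group means were SEMA4D (r = 0.95), MYB (0.948) and PPP1R1B (0.947).

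SOX9 encodes a transcription factor of crypt progenitors and Paneth cells. Its SNAI1 line values were 10.89 and 11.03 at 0 h, 10.36 at 3 h, 10.50 and 10.82 at 6 h, 10.76 at 24 h, 10.68 and 10.65 at 48 h, 9.82 at 72 h, and 9.71 and 9.73 at 96 h. As with LGR5, the 72 and 96 h arrays lay below the 8 earlier ones, and those at 24 and 48 h among them. Averaged over 24 to 96 h with the control line subtracted, the change was -0.95 and did not pass (SE 0.492, adjusted p = 0.298). At 72 and 96 h SOX9 was 2.27-fold lower than at the line's own 0 h (log2 change -1.18, SE 0.384, adjusted p = 0.0309). Its step from 24 and 48 h to 72 and 96 h was -1.10 (SE 0.543, adjusted p = 0.307). Within array set 1 its adjusted p was 0.016, where 12.8% of all genes passed, against 4.31% in the full fit. The LEF1 line read 10.30 and 11.37 at 0 h, 10.00 and 11.34 at 6 h, 9.47 at 24 h, and 10.36 and 10.96 at 72 h. The 0 and 6 h pairs of that line thus differed by more than 1, and the late change of the LEF1 line was -0.98 (SE 0.562, adjusted p = 0.552). MYO1C (r = 0.933), TNS4 (0.859) and SOX13 (0.849) were the genes most like SOX9.

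SMOC2, a secreted calcium-binding matrix protein that is a marker of crypt base stem cells, went opposite ways in the 2 engineered lines. The SNAI1 line read 11.20 and 10.75 at 0 h, 11.08 at 3 h and 10.37 and 10.92 at 6 h, then 8.93 at 24 h, 8.20 and 9.17 at 48 h, 7.80 at 72 h, and 7.18 and 7.93 at 96 h. In the LEF1 line it read 11.24 and 11.34 at 0 h, 11.24 and 11.08 at 6 h, 11.74 at 24 h, and 12.89 and 13.30 at 72 h. Control values stayed between 10.71 and 11.47 on all 9 arrays. All late SNAI1 line arrays thus lay below, and all late LEF1 line arrays above, every array of the control line and every earlier array of their own line. The late change in the SNAI1 line was -2.76 (SE 0.412, adjusted p = 0.000652), and it passed within array set 1 (-2.46, adjusted p = 0.0337) and in all 27 fits with 1 array left out (-3.07 to -2.46). At 72 and 96 h it was 9.81-fold lower than at 0 h (log2 change -3.29, SE 0.321, adjusted p = 3.64e-06).

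In the LEF1 line the change of SMOC2 over 24 and 72 h with the control line subtracted was 1.14 and did not pass (SE 0.47, adjusted p = 0.345). At 72 h against the line's own 0 h, the comparison added after the time courses were seen, it rose 3.49-fold (log2 change 1.80, SE 0.343, adjusted p = 0.00429), the 1 call among the 8 genes, where 8.96% of all genes passed, 5.47% higher and 3.49% lower. It also passed against time-matched control arrays (1.30, adjusted p = 0.0171), which lie in the other array set. The difference between the lines over 24 and 72 h was -3.73 (SE 0.47, adjusted p = 0.000619). Without the single SNAI1 72 h array, which leaves 24 h alone, it was -2.49 and did not pass (adjusted p = 0.116). Its pattern over the 18 group means was most like those of GPD1L (r = 0.979), STRBP (0.976) and KCNT1 (0.965).

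CD44 encodes the hyaluronan receptor, a Wnt target of crypt base cells whose variant exons are spliced in epithelia. The probe that stands for it here, ILMN_1803429, read 11.59 and 11.52 at 0 h in the SNAI1 line, 11.87 at 3 h, 11.79 and 11.60 at 6 h, 11.78 at 24 h, 12.33 and 12.10 at 48 h, 12.84 at 72 h, and 12.97 and 13.03 at 96 h. The 5 arrays from 48 h on lay above all earlier ones of the line. The control line stayed between 11.59 and 12.08. The late change was 0.94 (SE 0.233, adjusted p = 0.0209), and the step from 24 and 48 h to 72 and 96 h was 1.03 (SE 0.257, adjusted p = 0.0371). LGR6 and CD44 were the 2 genes of 8 called for that step, both higher, where 4.31% of all genes passed, 2.31% higher and 2% lower. The late call was lost in 6 of 27 fits with 1 array left out: without control 96 h (0.73, adjusted p = 0.11), control 72 h or SNAI1 72 h (0.80, 0.0736 each), control 0 h replicate 2 (0.89, 0.0636), SNAI1 0 h replicate 1 (0.97, 0.0748) or replicate 2 (0.90, 0.101). Against the line's own 0 h, CD44 rose 2.58-fold at 72 and 96 h (log2 change 1.37, SE 0.182, adjusted p = 6.18e-05).

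A second CD44 probe, ILMN_2348788, followed the first. It read 8.38 and 8.60 at 0 h, 8.74 at 3 h, 8.87 and 8.96 at 6 h, 9.12 at 24 h, 9.71 and 9.19 at 48 h, 10.11 at 72 h, and 10.29 and 10.26 at 96 h in the SNAI1 line. Fitted over all 25629 probes that passed, of which 5.05% were called, its late change was 1.32 (SE 0.341, adjusted p = 0.0372), beside 0.94 for the first probe (adjusted p = 0.0394). In that fit 6 probes of the 10 genes were called, and 2 with the array set as a block (4.54% of all probes) or within array set 1 (5.04%). The third probe, ILMN_1778625, was detected on 6 of 27 arrays and changed by 0.27 (SE 0.486, adjusted p = 0.847). Which CD44 transcripts each probe reads is not given in the files. In the LEF1 line the first probe read 11.88 and 11.97 at 0 h, 11.88 and 12.12 at 6 h, 11.55 at 24 h, and 11.39 and 11.56 at 72 h. Its 3 late arrays lay below the 4 earlier ones, and the change at 72 h was -0.45 (SE 0.194, adjusted p = 0.182). The SNAI1 minus LEF1 difference was 1.17 (SE 0.266, adjusted p = 0.0278) over genes. Over all probes, of which 1.48% were called, it was 1.17 for the first probe (adjusted p = 0.0545) and 1.75 for the second (0.0387). Without SNAI1 72 h it was 0.60 (adjusted p = 0.753), and the call over genes was lost in 6 of 27 fits with 1 array left out. PLEKHG2 (r = 0.952), HMOX1 (0.944) and ZBTB46 (0.939) were the genes most like CD44.

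PROM1, which encodes the pentaspan membrane protein CD133, was not detected on any of the 27 arrays, with values from 4.24 to 4.82. MSI1, an RNA-binding protein gene of intestinal progenitors, was detected on 1 array, SNAI1 96 h replicate 1. Each has 1 probe, and neither was tested. BMI1, a Polycomb repressive complex gene expressed in crypt cells that can restore the stem cell pool, was detected on all 27 arrays. It read 10.73 and 10.86 at 0 h, 10.81 at 3 h, 10.82 and 10.67 at 6 h, 10.92 at 24 h, 11.20 and 11.16 at 48 h, 11.37 at 72 h, and 11.68 and 11.88 at 96 h in the SNAI1 line. All 6 late arrays lay above the 5 earlier ones and above the control line's 10.46 to 10.68. The line already stood 0.27 above the control line at 0 h (SE 0.175, adjusted p = 0.857). With the control line subtracted the change was 0.47 and did not pass (SE 0.21, adjusted p = 0.218). It passed against time-matched control arrays (0.74, adjusted p = 0.000236) and at 72 and 96 h against the line's own 0 h (0.78, SE 0.164, 0.00236). Late LEF1 line arrays (11.05, 11.09 and 11.08) also lay above the 4 earlier ones (10.56 to 10.80), with a change of 0.36 at 72 h that did not pass (SE 0.175, adjusted p = 0.238). RNF146 (r = 0.951), CNPY4 (0.95) and MEX3B (0.946) were most like BMI1.

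**Figure D3:**
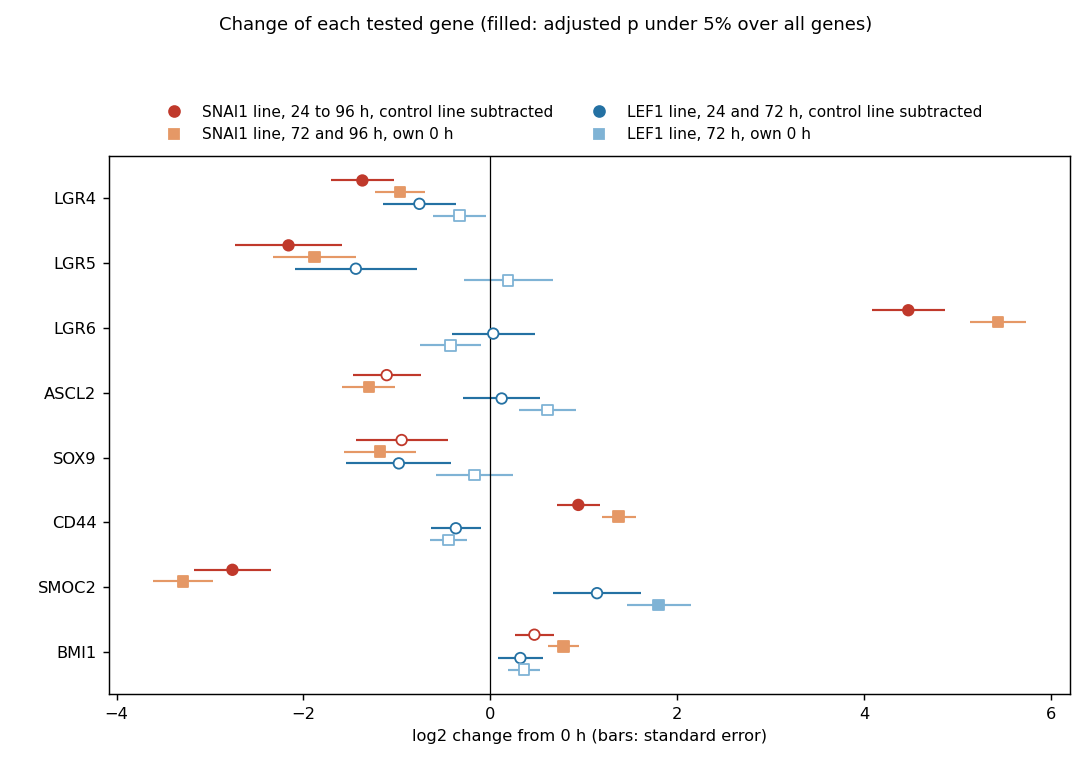
Log2 change from 0 h (horizontal axis, bars 1 standard error) of the 8 tested genes in 4 comparisons, filled where the adjusted p over all genes was under 5%. At 72 and 96 h in the SNAI1 line all 8 are filled, from -3.29 for SMOC2 to 5.43 for LGR6, and in the LEF1 line at 72 h SMOC2 alone is, at 1.80.

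At 72 and 96 h against the line's own 0 h, all 8 tested genes passed in the SNAI1 line, 3 higher and 5 lower, where 30.4% of all genes passed, 15.7% higher and 14.6% lower. Over 24 to 96 h against 0 h 6 did, 3 higher and 3 lower, where 20.1% of all genes passed, 10.3% higher and 9.76% lower. Against time-matched control arrays 7 of the 8 passed in the SNAI1 line over 24 to 96 h, all but SOX9, and 29.1% of all genes did. In the LEF1 line over 24 and 72 h LGR5 and SMOC2 passed in that comparison, as did 14.1% of all genes. The difference between the lines over 24 and 72 h passed for LGR6 (3.77, SE 0.445, adjusted p = 0.000444), CD44 and SMOC2, 3 of 8, 2 higher and 1 lower, where 2.73% of all genes passed, 1.01% higher and 1.72% lower. LGR6 did not pass there without the SNAI1 72 h array (1.77, adjusted p = 0.308). At 0 h none of the 8 differed from the control line past the threshold in either engineered line (0.0074% and 0.0222% of all genes did), and none had an unadjusted p under 0.05 (668 and 934 of all genes had). In the control line from 24 h on none passed (0% of all genes), while LGR4 (0.65) and LGR5 (1.26) had unadjusted p-values under 0.05, as did 531 of all genes. Leaving out 1 array moved these between 0.38 and 0.92 for LGR4 and between 0.37 and 2.16 for LGR5, and neither passed in any of the 27 fits.

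RefSeq promoter windows of GRCh38.p14, from 250 bases before to 50 after a transcript start, were given for 6 of the 10 genes, with 12 windows in all. They were searched on both strands for the E-box CAGGTG, the motif that SNAIL1 is known to bind, and for the TCF and LEF motif, spelled CTTTGAA, or with its last letters exchanged for TT, AT or TA. Of all 35116 windows of that length, 20.6% held the E-box and 13.8% a form of the TCF and LEF motif. The windows of LGR4, LGR6, CD44, SMOC2 and BMI1 held neither. The window of SMOC2, which fell furthest in the SNAI1 line, lies at chr6:168440934-168441233 on the plus strand. The first of 3 windows of LGR6, which rose furthest, lies at chr1:202193549-202193848 on the plus strand. For comparison the first of 4 PROM1 windows, at chr4:16083974-16084273 on the minus strand, holds 2 E-boxes, in capitals, which begin at -103 and 14 from the start. All 3 are shown so that the letters around these starts can be seen, and a missing match says only that these letters are not in this window.
SMOC2: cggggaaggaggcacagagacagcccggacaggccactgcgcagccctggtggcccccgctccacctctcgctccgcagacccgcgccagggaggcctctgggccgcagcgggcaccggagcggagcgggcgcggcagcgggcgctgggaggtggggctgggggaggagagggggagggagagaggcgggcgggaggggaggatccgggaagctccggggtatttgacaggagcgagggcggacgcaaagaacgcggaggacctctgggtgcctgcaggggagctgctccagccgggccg
LGR6: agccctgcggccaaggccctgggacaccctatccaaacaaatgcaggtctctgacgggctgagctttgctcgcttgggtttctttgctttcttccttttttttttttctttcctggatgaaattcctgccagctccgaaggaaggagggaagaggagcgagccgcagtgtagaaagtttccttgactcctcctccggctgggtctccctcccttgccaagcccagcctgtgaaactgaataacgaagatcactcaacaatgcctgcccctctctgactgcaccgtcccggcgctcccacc
PROM1: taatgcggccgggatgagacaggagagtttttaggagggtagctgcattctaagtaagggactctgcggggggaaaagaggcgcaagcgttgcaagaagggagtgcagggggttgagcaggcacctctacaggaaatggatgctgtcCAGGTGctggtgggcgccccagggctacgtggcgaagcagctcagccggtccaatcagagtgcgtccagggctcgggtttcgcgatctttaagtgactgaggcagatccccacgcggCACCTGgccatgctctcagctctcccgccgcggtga

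Genes around the LGR receptors in the pathway were set beside them. Of 24 genes for R-spondins, Wnt receptors and their partners, 19 were tested, and late in the SNAI1 line 2 rose and none fell, where 3.89% of all genes rose and 4.8% fell, with a list median of 0.16 against 0.02 over all genes. The same shares apply to the counts of the lists below, and in the LEF1 line 0.888% of all genes rose and 0.266% fell. FZD7, a Frizzled receptor gene, rose by 3.29 (SE 0.458, adjusted p = 0.000388), from a mean of 5.41 at 0 h to 9.29 at 96 h. Its second probe changed by -0.44 (adjusted p = 0.75 over all probes), so the probes disagree. DVL3, a Dishevelled adaptor gene, rose by 1.00 (SE 0.274, adjusted p = 0.0358), a call that was lost in 10 of 27 fits with 1 array left out and within array set 1 (0.62, adjusted p = 0.0902). RSPO1, RSPO3 and RSPO4, which encode ligands of the LGR receptors, were detected on no array. No gene of this list passed in the LEF1 line over 24 and 72 h (median 0.12).

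Of 22 other crypt base and Wnt target genes, 17 were tested, and 6 rose and 3 fell late in the SNAI1 line (8.69% of all genes passed, list median 0.70), while 3 rose and none fell in the LEF1 line (1.15% of all genes, list median 0.60). APCDD1, which encodes a Wnt inhibitor at the cell surface, rose in both lines (4.32, adjusted p = 1.03e-05 and 4.53, adjusted p = 6.26e-05). So did SP5, a Wnt-induced transcription factor gene (adjusted p = 1.76e-05 and 0.00169). Its probe was detected on no control array and on no LEF1 line array at 0 or 6 h, so in the LEF1 line only a bound can be given, at least 4.22-fold higher over 24 and 72 h and at least 11.2-fold at 72 h. In the SNAI1 line it was detected on 1 of 2 arrays at 0 h, and the measured means were 4.82 at 0 h and 9.02 at 96 h. NKD1, an inhibitor of Dishevelled, rose in both lines too (2.50, adjusted p = 0.0036 and 2.85, adjusted p = 0.0174), and the difference between the lines was -0.45 (adjusted p = 0.872). Without the single control 72 h array, which leaves 24 h alone, APCDD1 still passed in the LEF1 line (4.23, adjusted p = 0.00479), while SP5 (1.52, 0.492) and NKD1 (1.90, 0.607) did not. Late in the SNAI1 line EPHB3, a receptor that positions cells along the crypt, fell (log2 change -3.77, adjusted p = 0.00241), as did SLC12A2, a sodium-potassium-chloride cotransporter gene of crypt cells (-2.04, adjusted p = 8.64e-05). Within array set 1 EPHB3 changed by -3.61 and did not pass (adjusted p = 0.0631). The late changes of LGR5 and ASCL2, textbook targets of the same pathway, were -2.16 and -1.11 in the SNAI1 line, where ASCL2 did not pass, and -1.44 and 0.12 in the LEF1 line, where neither did. Against the LEF1 line's own 0 h the change of LGR5 over 24 and 72 h was -0.10 (SE 0.447).

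Among 9 genes of reserve or regenerating crypt cells, 5 were tested. ANXA1, an annexin of regenerating epithelium, rose late in the SNAI1 line by 4.51 (SE 0.849, adjusted p = 0.00356). KRT19 fell by 2.03 (adjusted p = 0.00703) and LRIG1, a receptor inhibitor of quiescent crypt cells, by 1.62 (adjusted p = 0.0127), and the list median was -0.48. LRIG1 did not pass within array set 1 (-1.63, adjusted p = 0.0718) or without SNAI1 0 h replicate 1 (-1.51, 0.0755). None of these passed in the LEF1 line (median -0.26). Of 14 other markers used for colorectal cancer stem cells, 11 were tested and 1 rose and 2 fell in the SNAI1 line, where 3.89% of all genes rose and 4.8% fell (list median -0.31). ITGB1, an integrin subunit gene, rose by 0.92 (adjusted p = 0.0344), while EPCAM, an epithelial adhesion molecule, fell by 1.41 (adjusted p = 0.00375) and DPP4, a membrane peptidase known as CD26, by 1.70 (adjusted p = 0.044). With 1 array left out the call of ITGB1 was lost in 10 of 27 fits and that of DPP4 in 16. The other 2 ITGB1 probes changed by 0.81 and 0.28 and were not called over all probes. None passed in the LEF1 line with the control line subtracted (median 0.56). At 72 h against its own 0 h CD24 rose by 2.56 there (adjusted p = 3e-04) and ALDH1A1 by 2.82 (adjusted p = 0.00885), while in the fit over all probes the second probe of each was not called (0.97, adjusted p = 0.0984, and 2.69, adjusted p = 0.13), and DPP4 fell (log2 change -2.40, adjusted p = 0.00192).

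CD44 was read beside 14 genes for its ligands, partners and splicing regulators, of which 10 were tested. Late in the SNAI1 line 3 rose and 1 fell, where 8.69% of all genes passed (list median 0.48). VCAN, which encodes the hyaluronan-binding proteoglycan versican, rose by 5.98 (adjusted p = 1.38e-05), and in the LEF1 line by 3.56 (adjusted p = 0.0084), the 1 call of this list there (median 0.11). Without control 72 h it did not pass in the LEF1 line (2.41, adjusted p = 0.492). HAS2, a hyaluronan synthase gene, passed as higher (adjusted p = 0.000492) from undetected at 0 h, and was at least 4.04-fold higher over 24 to 96 h and at least 10.5-fold higher at 72 and 96 h. Its probe was detected on the SNAI1 line arrays from 48 h on and on 1 control array alone, so it passed the detection filter through the arrays where it was high. Of its 4 probes 2 passed that filter, and the other of these was not called (0.73, adjusted p = 0.258 over all probes). MSN, which encodes moesin, a linker of CD44 to actin, rose by 1.75 (adjusted p = 0.00402). ESRP1, an epithelial regulator of CD44 splicing, fell by 1.21 (SE 0.329, adjusted p = 0.0345), and its call was lost in 8 of 27 fits with 1 array left out and within array set 1 (-1.16, adjusted p = 0.096).

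**Figure D4:**
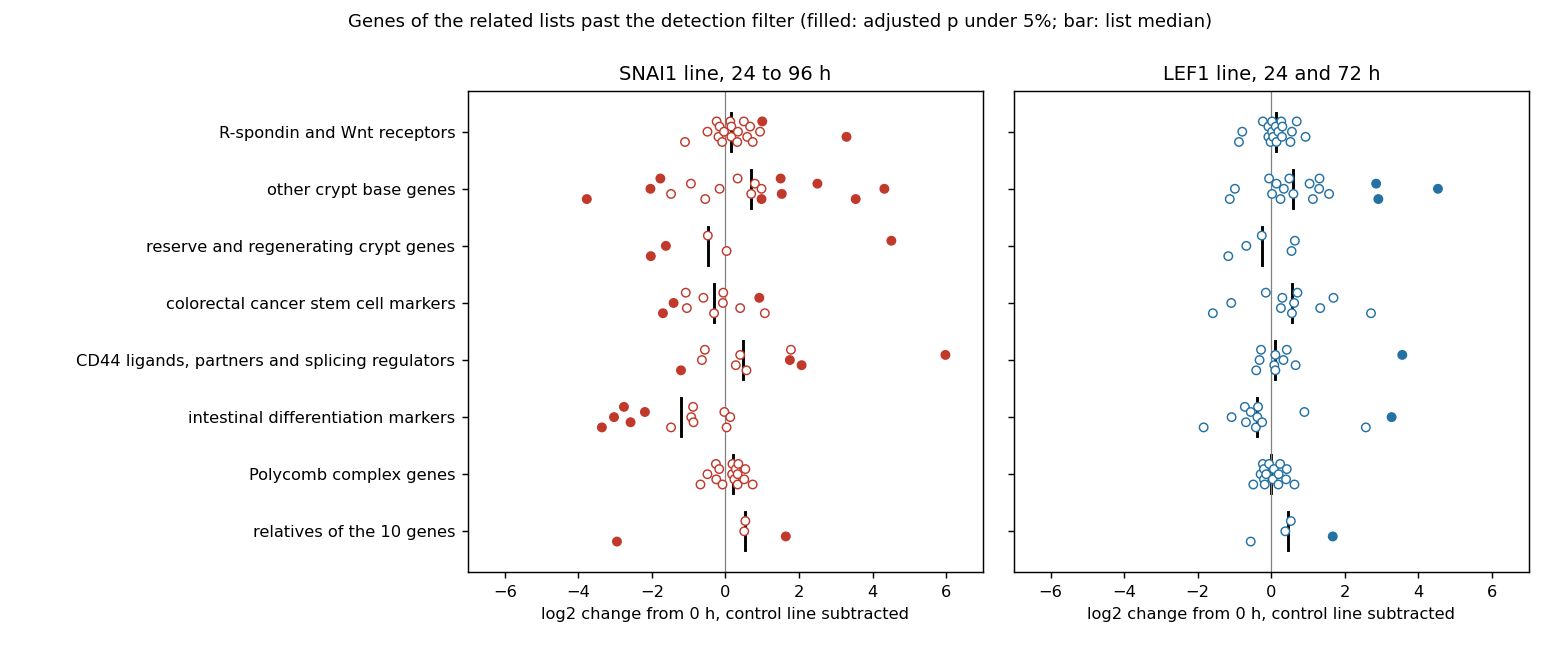
Log2 change from 0 h with the control line subtracted (horizontal axis) of every tested gene of the 8 related lists, in the SNAI1 line over 24 to 96 h (left) and the LEF1 line over 24 and 72 h (right), with 1 point per gene, filled where the adjusted p was under 5%, and a bar at the list median. The differentiation markers lie furthest to the left in the SNAI1 line, with a median of -1.21, and the Polycomb list holds no filled point.

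Markers of differentiated cells were set beside the crypt base genes. Of 15 markers of enterocytes, goblet and Paneth cells, 12 were tested, and late in the SNAI1 line none rose and 5 fell, where 3.89% of all genes rose and 4.8% fell (list median -1.21). VIL1, a microvillus protein gene, fell (log2 change -3.03, adjusted p = 6.09e-06) and was not detected at 72 and 96 h, at least 20.3-fold lower than at 0 h. CEACAM5 fell by 3.36 on this scale (adjusted p = 0.000334), SPINK4, a goblet cell peptide gene, by 2.76 (adjusted p = 0.00227) and AGR2, a secretory cell disulfide isomerase gene, by 2.19 (adjusted p = 0.000439). SPINK4 did not pass without control 96 h (-1.84, adjusted p = 0.0513). The epithelial markers summed above include VIL1 and CEACAM5. In the LEF1 line DEFA5, a Paneth cell defensin gene, was the 1 call (3.27, SE 0.554, adjusted p = 0.00815, list median -0.40). It was already higher in the LEF1 line than in the control line at 0 h by 2.81 (adjusted p = 0.0317), and without control 72 h its late call was lost (3.25, adjusted p = 0.113). At 72 h against the line's own 0 h, the log2 changes of VIL1 (-1.68, adjusted p = 0.000108), AGR2 (-1.11, 0.015) and MUC2, the goblet cell mucin gene (-1.10, 0.00587), passed.

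Of 19 other genes listed with Polycomb 16 were tested, and none passed late in either line (medians 0.21 and -0.01). The list includes CDKN2A, a cell cycle inhibitor gene that is not a Polycomb complex gene. At 72 and 96 h against the SNAI1 line's own 0 h, where BMI1 passed, 4 of the 16 did as well, all higher, as did 15.7% of all genes in that direction. These were PHC1 (1.22), PHC2 (0.95), RING1 (0.57) and CDKN2A. The CDKN2A probe was detected on 2 of 27 arrays and was undetected at 0 h in the SNAI1 line. It met the detection filter through the SNAI1 line at 72 or 96 h, where it was high, so its call adds no support to the count. Only a bound can be given for it, at least 1.56-fold higher at 72 and 96 h. Of 11 close relatives of the 10 genes, 4 were tested. SOX4 rose by 1.64 in the SNAI1 line (adjusted p = 0.00154) and by 1.67 in the LEF1 line (adjusted p = 0.0166), where it did not pass without control 72 h (1.34, adjusted p = 0.412) or without LEF1 0 h replicate 1 (1.51, 0.082). PROM2, the relative of PROM1, fell by 2.95 in the SNAI1 line (adjusted p = 4.81e-05), from a mean of 9.58 at 0 h to 5.19 at 96 h. Since these lists overlap in the lines, arrays and control values they use, their counts are not independent of each other.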

How the data were processed

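RNA from the 27 samples was measured on Illumina bead arrays. The authors deposited a table of log2 probe intensities without normalisation between arrays, in which the log2 scale was inferred from the values. Per the file headers the column beside each is the detection p-value. The authors also deposited a normalised log2 matrix, used as an alternative. The scanner software is not given in the sources used here, nor is the summarisation or the genome build.

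Intensities were background corrected and quantile normalised with neqc of limma 3.58.1 in R 4.3.3 (negative controls inferred from the detection p, offset 16). The table holds 47323 probes, and 32 of them lacked a finite value on some array and were left out. By the platform annotation 30092 probes have 1 gene symbol, 8 have several and 17191 have no symbol. The detection filter (p under 0.01 on 2 or more arrays) left 25629 probes, and each of 13510 genes was represented by its probe of highest mean. The limma model had 1 mean per line and time (18 groups, of which 9 are pairs and 9 single arrays), so single arrays take their spread from the pairs (9 residual and 4.92 prior degrees of freedom). Times were weighted equally within a contrast, and p-values of each contrast received a Benjamini-Hochberg adjustment over all genes, with a 5% threshold. Late is 24 to 96 h in the SNAI1 line and 24 and 72 h in the LEF1 line, each minus its 0 h, with the control line's change subtracted. One LEF1 line array is titled 6 h but has 0 h in its time field, and was taken as 6 h.

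The 10 genes, the lists and the tests were chosen with earlier results of these data known. Named besides the 10 genes are, for each list and contrast, up to 4 genes past the threshold with the lowest adjusted p, and for each gene of interest the 3 genes with the highest Pearson correlation over the 18 group means among genes whose means span at least 1. A bound on a fold takes, for the side with no detected array, the higher of the lowest detected signal and the probe's own value on each array. Because an undetected probe can read above the lowest detected signal, such a bound is not a strict limit. Promoter sequences are from RefSeq, GRCh38.p14. On simulated data for 13510 genes, 100 genes were given a log2 change of 2 and 100 a change of 1, and the late SNAI1 contrast called 91 and 14 of these and the late LEF1 contrast 70 and 9. Among the genes given no change, the late SNAI1 contrast called 8 and the late LEF1 contrast 5. Whether these counts carry over to the real arrays, which lie in different array sets, was not tested. With few arrays in a group, their number limits the precision. Alternatives were other background corrections, filters, probe rules, references, array set as a block or within sets, the replicate number as a block and single arrays left out.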

Additional observations from a re-analysis of the deposited data

Results flagged for a closer look

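The change from 0 h over 24 and 72 h differed between the engineered lines for 3 of the crypt base genes, by limma's test of the SNAI1 minus LEF1 difference. In that test 2.73% of all genes passed. The difference was 3.77 on the log2 scale for LGR6, 1.17 for CD44 and -3.73 for SMOC2. Genes of the related lists with such a difference were FZD7 (3.09, 1 of its 2 probes), HAS2 (1.50, 1 of its 4 probes, of which 2 passed the detection filter), SLC12A2 (-2.07), LRIG1 (-2.13), EPCAM (-1.82), VIL1 (-1.59) and PROM2 (-1.96). The largest were DEFA5 (-4.56) and DEFA6 (-4.91), whose mean levels at 0 h were 8.54 and 7.83 in the SNAI1 line and 11.02 and 10.01 in the LEF1 line. All use the single SNAI1 line arrays at 24 and 72 h and the single LEF1 line array at 24 h, and the lines lie in different array sets. Without SNAI1 72 h few genes of any kind passed, 0.296% of all genes against 2.73% in the full fit. The differences of DEFA5 (-4.06) and DEFA6 (-4.85) still passed there and the other 10 did not. Among these, EPCAM stood at -1.03, FZD7 at 2.00, HAS2 at -0.05, LRIG1 at -1.56, PROM2 at -1.03, SLC12A2 at -1.39 and VIL1 at -0.68. That fit leaves 24 h alone.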

How the results depend on the processing

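Single arrays left out aside, 831 values were computed for the 8 crypt base genes over 72 results: 786 kept their direction and side of the threshold or moved by less than their error, 7 lost a call, 17 gained one, 21 moved by more and none reversed while called. Uncalled values changed sign in 49 cases. For other named genes 486 of 508 were kept and 22 lost their call. With 1 array left out, 43 of 1944 values of the crypt base genes lost a call, 8 gained one and 18 moved by more, and of 999 values of other named genes 66 lost their call and 1 reversed.

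The number of crypt base genes called late in the SNAI1 line, 5, became 3 within array set 1 (10.6% of all genes passed there, against 8.69%) and 8 for 72 and 96 h against the line's own 0 h (30.4%), and ranged from 2 to 6 with 1 array left out (4.78% to 14.2%). Late in the LEF1 line 0 became 2 against time-matched control arrays (LGR5 and SMOC2, 14.1% of all genes) and 1 at 72 h against its own 0 h (SMOC2, 8.96%), with 0 to 1 when 1 array was left out (0.178% to 2.64%, against 1.15%). For 72 and 96 h against 24 and 48 h in the SNAI1 line, 2 (4.31% of all genes) became 1 with detection on at least 9 arrays (4.62%), where LGR6 is not tested. It became 1 with the mean of a gene's probes (4.08%) and 4 within array set 1 (12.8%). With 1 array left out it ranged from 0 to 3 (0.999% to 6.57%). The SNAI1 minus LEF1 difference ranged from 0 to 3 calls (0.296% to 4.72% of all genes). It had 0 without SNAI1 72 h (0.296%), where HAS2 turned to -0.05 (range -0.05 to 3.05 with 1 array left out). At 0 h the SNAI1 line had none in the full fit (0.0074% of all genes). Without control 0 h replicate 1 a single control array is left at 0 h, so the call of LGR5 there is not read further. Over all probes 6 were called, 2 with the array set as a block, 2 within array set 1, and 2 to 6 when 1 array was left out. The cause of these shifts was not tested. The SNAI1 minus LEF1 difference within array sets was not run.

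Deviations of equally numbered arrays from their group means correlated at -0.435 to 0.523 over 36 pairs of groups, with 8 pairs above 0.1 and a median of 0.062. The control pairs at 0 and 6 h each span both array sets, with opposite numbering. These correlations do not settle whether equal numbers mark arrays handled together. With a replicate block, 5 genes were called late in the SNAI1 line (LGR5 -2.13, adjusted p = 0.0368, LGR4 -1.36, adjusted p = 0.0262), where 9.23% of all genes passed. For SNAI1 minus LEF1 3 were called (3.14% of all genes), and over all probes 5 (5.39% of all probes). The dim signal of LGR4, LGR6 at 0 h, PROM1 and MSI1 against background limits what can be read of them.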
